A study of Bombyx mori with 3 samples.

Results

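The 56 array features described here are the probes for proteins of the muscle sarcomere and its actin and myosin relatives in dissected midgut of silkworm larvae (Bombyx mori). They were chosen by words in the probe and gene descriptions: myosin, actin, actinin, tropomyosin, troponin, titin, kettin, projectin, paramyosin, muscle LIM and arginine kinase. Of 23229 gene probes on the array, 150 carried such a word. Of these, 19 were set aside because their text named an interacting or actin-related protein, which left 131. A spot was above the flag level when the deposited file marked its brighter channel as at least 400. By that mark 75 of the 131 were below the level on every array, 56 were above it on at least 1 array, and 48 were above it on all 3. The brightest of the 75 reached an intensity of 394, and the dimmest flagged spot among the members reached 408. The 48 probes stand for 42 genes when counted by gene identifier or else by the whole gene model entry, and 18 of them carry a gene identifier. In that count the actin 6 and muscle actin probes are apart, although they share the gene model Bmb012212. Many other names rest on the best protein match in another species. The words also caught myosins and actin regulators that are not sarcomere proteins, so the 48 were split into thick filament (8 probes), thin filament (11), Z disc and elastic proteins (12), arginine kinase (1) and cytoskeletal or other proteins (16). The first 4 classes, 32 probes of 27 genes counted in the same way, are called sarcomere classes below.

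Both groups were P50 larvae of the fifth instar, and feeding started on its day 3. Phoxim, an organophosphate that inhibits acetylcholinesterase, was given on leaves dipped for 1 min in a 4 µg/mL solution, and control leaves were dipped in water. Midguts were taken after 24 h, with 30 larvae per experiment; how many larvae entered each RNA is not given in the labels. Each of 3 arrays held 1 phoxim RNA and 1 control RNA in its 2 dye channels, and the series calls the arrays biological replicates. Every ratio below is phoxim over control on the log2 scale, and means are given ± SD over the 3 arrays. The dyes of replicate 2 are not settled. The labels put phoxim in Cy5 on every array, whereas the header of replicate 2 puts the phoxim RNA in Cy3. Over the whole set of 23229 gene probes, dim ones included, the ratio of replicate 2 had Pearson correlations of -0.47 with replicate 1 and -0.45 with replicate 3, against 0.42 between replicates 1 and 3. Across the 3964 probes above the flag level on all arrays, the correlations were 0.62, 0.26 and 0.18 in the same order. The headers were followed, and means and medians with the sign of replicate 2 turned are given in each paragraph on tested members and lists.

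Muscle contracts when thick filaments of myosin pull on thin filaments of actin, and troponin and tropomyosin on the thin filament switch the pull on when calcium rises. In insects, paramyosin forms the core of the thick filament, and the giant elastic proteins kettin, projectin and titin tie thick filaments to the Z disc, where alpha-actinin and muscle LIM proteins sit. The larval midgut is an epithelium wrapped in circular and longitudinal visceral muscle, so a dissected midgut contains RNA of both tissues. In such bulk RNA, a change in the amount of muscle and a change in transcript per muscle cell cannot be told apart.

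Most muscle probes had ratios above 0, yet no member passed the test. In limma, with Benjamini-Hochberg adjustment over all 3964 kept probes, 0 of 48 members had an adjusted p under 0.05, against 0.681% of all kept probes. At an unadjusted p under 0.05 in limma, 24 members were higher in phoxim and 0 were lower, against 10.7% and 4.54% of all kept probes. The ratio was above 0 on all 3 arrays for 27 of 48 members, where 23% of all kept probes were, and below 0 on all 3 arrays for 3 members, where 14.3% were. The median of the members was 0.59 on replicate 1, 0.34 on replicate 2, 0.31 on replicate 3 and 0.45 for the mean of the arrays. The same medians over all kept probes were 0.05, 0.05, 0.04 and 0.03. Most of these members were sarcomere proteins: 22 of the 32 probes of the sarcomere classes were above 0 on all arrays, and their median was 0.55, while the 16 cytoskeletal or other probes had a median of 0.29.

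The count of calls depended on replicate 3. Without it, limma called 13 members higher and 2 lower, against 7.14% and 4.72% of all kept probes. Without replicate 2 it called 1 member, myosin IXA, against 0.101% of all kept probes, and without replicate 1 it called 0, with 10 members higher and 1 lower at an unadjusted p under 0.05, against 6.38% and 2.17% of all kept probes. With replicate 2 turned, the median of the members was 0.25 against 0.0091 for all kept probes, and 40 of 48 means were above 0, against 38 as the headers state the dyes. Of the 40, 36 were above 0 in both directions, 4 had been below 0, and 2 others were above 0 only as the headers state the dyes. Turned, 6 members were above 0 on all arrays, where 7.62% of all kept probes were. In that direction limma called 0 members and 0 of all 3964 kept probes, so the 0 is not particular to the members. There, 3 members had an unadjusted p under 0.05 in limma, against 0.732% of all kept probes.

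**Figure D1:**
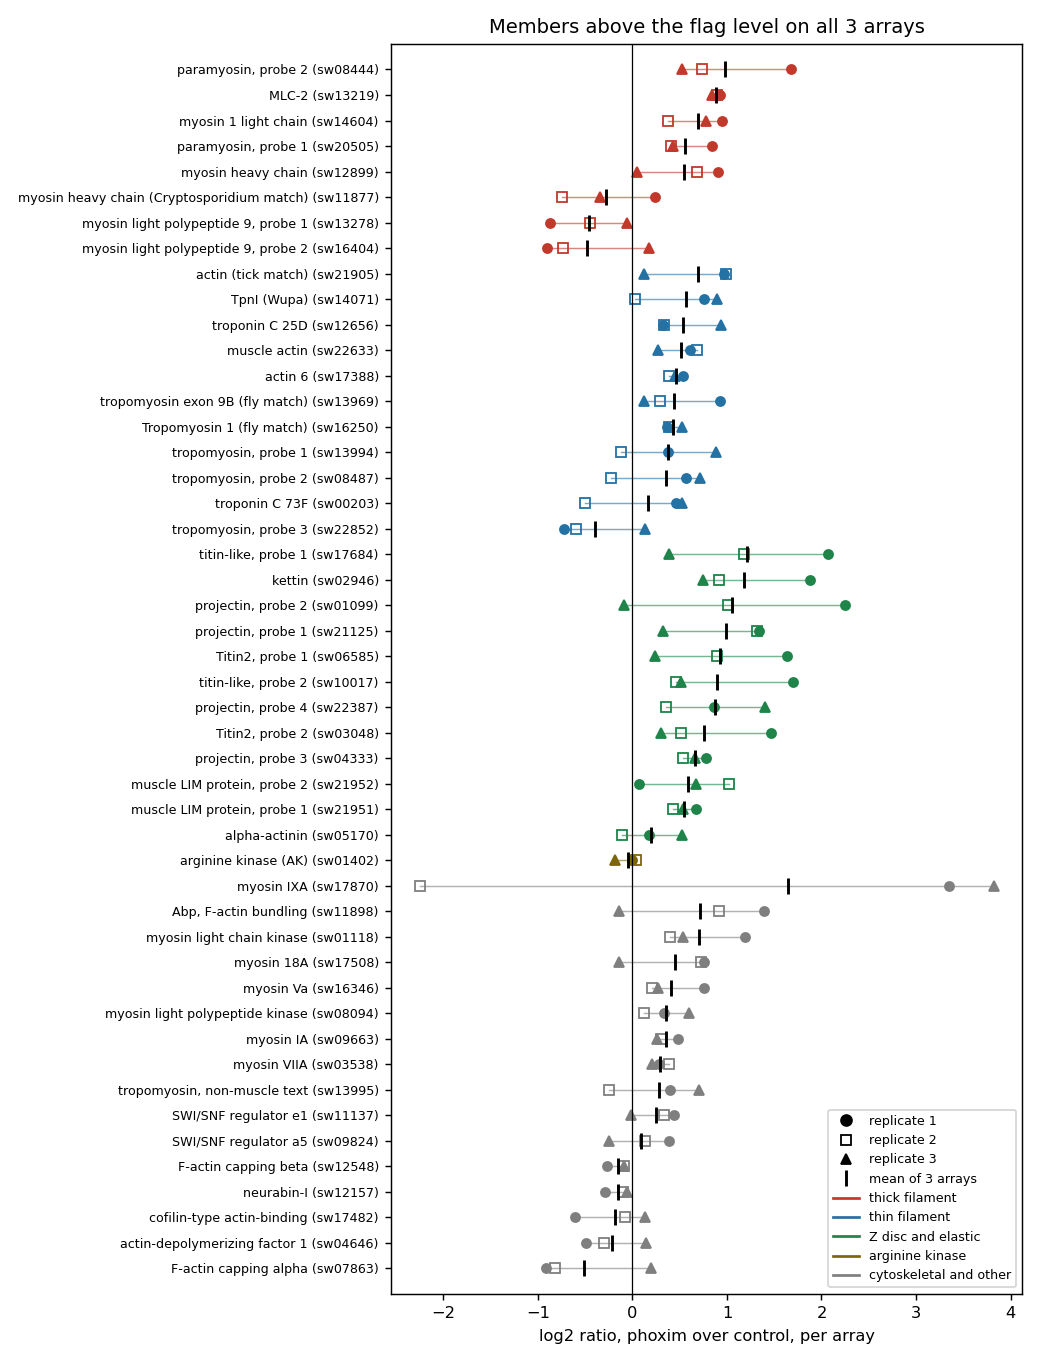
Log2 ratio of phoxim over control (x axis) for each of the 48 members above the flag level on all 3 arrays, coloured by class. Circles, open squares and triangles are replicates 1, 2 and 3, and the black bar is their mean. Apart from 1 alpha-actinin and 1 projectin point, all ratios of the Z disc and elastic class lie right of 0, and myosin IXA runs from -2.25 to 3.82.

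Of the thick filament class, 5 of 8 probes were above 0 on all arrays and 1 was below 0 on all of them, against 23% and 14.3% of all kept probes. The steadiest was MLC-2 (sw13219), a light chain of muscle myosin. Its phoxim channel read 27369, 20587 and 21683 on replicates 1, 2 and 3, and its control channel read 13140, 14185 and 13747. Phoxim and control readings did not overlap. The log2 ratios were 0.93, 0.89 and 0.84, a mean of 0.89 ± 0.04 or 1.85-fold, with a 95% interval of 0.52 to 1.26. That mean had an adjusted p of 0.0679 in limma, the smallest of the 48, and 0.29 is its mean with replicate 2 turned.

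Myosin heavy chain (sw12899), the motor of the thick filament, had ratios of 0.91, 0.68 and 0.05, a mean of 0.54 ± 0.45 (limma adjusted p = 0.291). Its raw readings were 1405 and 1002 in phoxim on replicates 1 and 2 against 679 and 481 in control, while on replicate 3 they were 615 and 668. The probe described as myosin 1 light chain (sw14604) had ratios of 0.95, 0.38 and 0.77, a mean of 0.70 ± 0.29 (limma adjusted p = 0.150). Its raw readings were 23603 against 8860 on replicate 1 and 21202 against 8714 on replicate 3, but 12060 against 17684 on replicate 2. In this gene the channel that was brighter was Cy5 on every array, whichever RNA it held. With replicate 2 turned, the mean of myosin heavy chain was 0.09 and that of myosin 1 light chain 0.45.

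Paramyosin, the core protein of invertebrate thick filaments, had 2 probes. Probe 2 (sw08444) gave 1.68, 0.73 and 0.52, a mean of 0.98 ± 0.62 (limma adjusted p = 0.147). Probe 1 (sw20505) gave 0.84, 0.40 and 0.43, a mean of 0.56 ± 0.24 (limma adjusted p = 0.213). Both were highest on replicate 1 and above 0 on every array, and with replicate 2 turned their means were 0.49 and 0.29.

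The other 3 probes of this class had means below 0, and their names do not settle whether they belong to muscle. Both probes of the gene named myosin light polypeptide 9 are in this group. In humans the protein of that name is a regulatory light chain of smooth muscle and nonmuscle myosin. Its probe 1 (sw13278) gave -0.87, -0.45 and -0.05 (mean -0.46 ± 0.41, limma adjusted p = 0.335), and its probe 2 (sw16404) gave -0.90, -0.73 and 0.18 (mean -0.48 ± 0.58, limma adjusted p = 0.377). A probe whose best match is a myosin heavy chain of the parasite Cryptosporidium (sw11877) gave 0.24, -0.74 and -0.34 (mean -0.28 ± 0.49). With the sign of replicate 2 turned, the means were -0.16 for sw13278, 0.0042 for sw16404 and 0.21 for sw11877. Over replicates 1 and 3 alone they stayed below 0, at -0.46, -0.36 and -0.05 in the same order. The class median was 0.55 over all 8 probes and 0.70 over the 5 that remain without these 3. Because the 3 left out are those with means below 0, the higher median follows from that choice. Myosin 1 light chain, whose class was also set after values were seen, is among the 5.

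**Figure D2:**
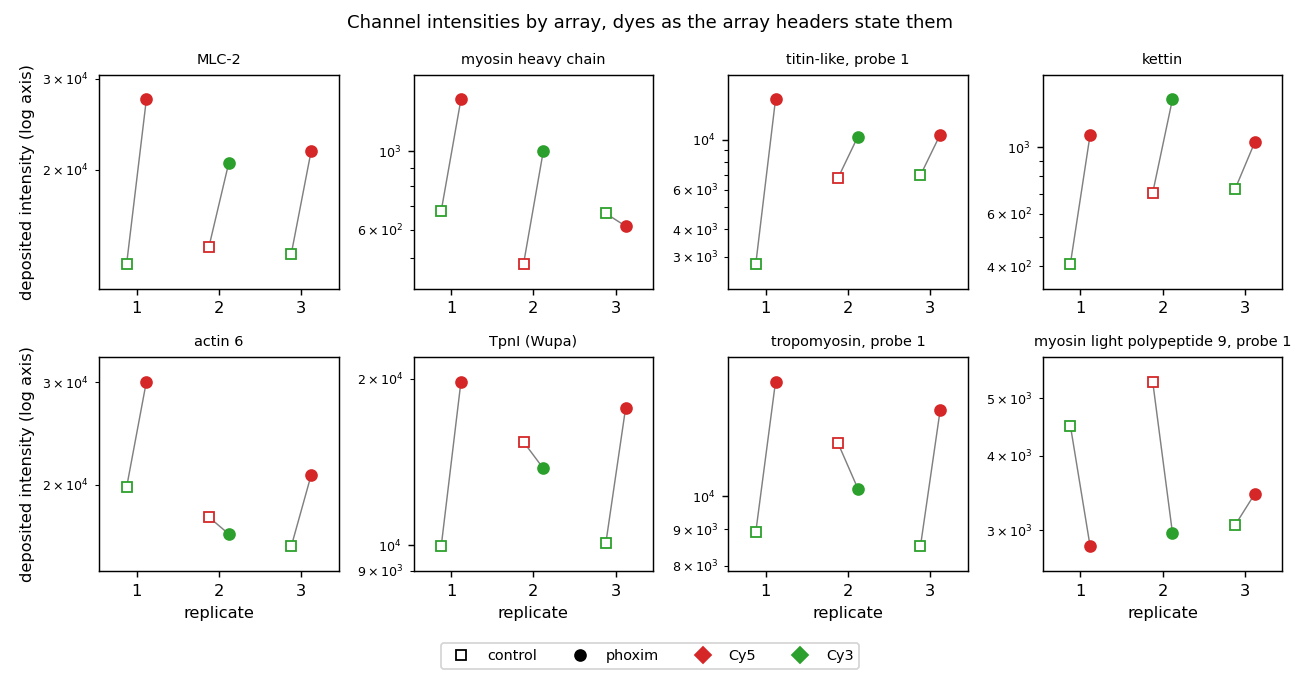
Deposited intensity (log axis, linear units, before the normalization in the deposited ratio) of the control and phoxim channels on replicates 1, 2 and 3 for 8 members. Open squares are control, filled circles phoxim, red Cy5 and green Cy3 as the array headers state the dyes. MLC-2, kettin and titin-like probe 1 read higher in phoxim on every array. Troponin I and tropomyosin probe 1 read higher in Cy5 on every array.

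In the thin filament class, 7 of 11 probes were above 0 on all arrays and 0 were below 0 on all of them, against 23% and 14.3% of all kept probes. Actin forms the filament itself. The probe named actin 6 (sw17388) read 30096, 16448 and 20746 in phoxim and 19805, 17582 and 15664 in control. Those readings overlapped, and on replicate 2 the raw reading was lower in phoxim. After the normalization in the deposited ratio its values were 0.54, 0.39 and 0.45, a mean of 0.46 ± 0.08 (limma adjusted p = 0.260). The probe named muscle actin (sw22633) gave 0.61, 0.68 and 0.27 (mean 0.52 ± 0.22, limma adjusted p = 0.238), and an actin probe named by a tick protein (sw21905) gave 0.97, 0.98 and 0.12 (mean 0.69 ± 0.49, limma adjusted p = 0.225). Actins are near-identical in sequence, and the probes' sequences were not used here, so signal shared between actin genes cannot be told apart. By its gene models, actin 6 shares Bmb012212 with the muscle actin probe, so these probes need not stand for separate genes. It also shares Bmb012614 and Bmb027728 with a probe named cytoplasmic actin A3 (sw22671), which was counted in the last class. That probe, above the flag level on 2 arrays, had a mean of -0.15, or 0.38 with replicate 2 turned. With replicate 2 turned, the means were 0.20 for actin 6, 0.06 for muscle actin and 0.04 for the tick match.

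Troponin I (TpnI, sw14071), the subunit that holds contraction off at rest, read 19752, 13773 and 17702 in phoxim and 9964, 15375 and 10104 in control. Its log2 ratios were 0.76, 0.03 and 0.90, a mean of 0.56 ± 0.47 (limma adjusted p = 0.291). Replicates 1 and 3 were high and replicate 2 was near 0, so turning replicate 2 hardly moved the mean, to 0.54. Troponin C is the subunit that binds calcium. Its form 25D (sw12656) gave 0.33, 0.33 and 0.93 (mean 0.53 ± 0.35, limma adjusted p = 0.275), and its form 73F (sw00203) gave 0.46, -0.50 and 0.53 (mean 0.16 ± 0.57, limma adjusted p = 0.757). The first was above 0 on every array and the second was below 0 on replicate 2. Turned, their means were 0.31 and 0.50.

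Troponin T (sw22863, LOC692913), which anchors troponin to tropomyosin, was above the flag level on replicate 3 alone and was not tested. Its phoxim channel read 291, 133 and 1448 on replicates 1, 2 and 3, and its control channel read 71, 6 and 311. The control reading was not above the 95th percentile of the 382 negative control spots on any array, and the phoxim reading was above it on replicates 1 and 3. Replicate 3 alone had a phoxim reading above the negative-control level of the control channel, 1448 against 339.95, so no fold over the 3 arrays is given. Deposited ratios of 1.51, 3.00 and 1.87 rest on those dim control readings, and their mean with replicate 2 turned is 0.13.

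Tropomyosin lies along actin and moves when troponin binds calcium. Of 4 probes that share the gene LOC100101174, probe 1 (sw13994) gave 0.37, -0.12 and 0.89 (mean 0.38 ± 0.50), and probe 2 (sw08487) gave 0.57, -0.23 and 0.72 (mean 0.35 ± 0.51). The probe with a non-muscle description (sw13995), counted in the last class, gave 0.40, -0.25 and 0.70 (mean 0.28 ± 0.49). These 3 shared one order over the arrays, with replicate 3 highest and replicate 2 below 0. Probe 3 (sw22852) of the same gene had -0.72, -0.60 and 0.13 (mean -0.40 ± 0.46), so it differed in sign on replicate 1. None of the 4 had an adjusted p below 0.402 in limma, and the difference between the probes of this gene was not tested. A probe matched to fly Tropomyosin 1 (sw16250) gave 0.36, 0.38 and 0.53 (mean 0.42 ± 0.09), and one matched to fly tropomyosin exon 9B (sw13969) gave 0.92, 0.29 and 0.12 (mean 0.44 ± 0.42). With replicate 2 turned, the first 3 probes of LOC100101174 had means of 0.46, 0.51 and 0.45, probe 3 had 0.0031, and the fly matches had 0.17 and 0.25.

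Among Z disc and elastic proteins, 10 of 12 probes were above 0 on all arrays and 0 were below 0 on all of them, against 23% and 14.3% of all kept probes. At an unadjusted p under 0.05 in limma, 11 were higher, against 10.7% of all kept probes. A titin-like probe 1 (sw17684) read 15208, 10353 and 10574 in phoxim and 2794, 6780 and 6956 in control. Kettin (sw02946), which binds actin beside the Z disc, read 1103, 1450 and 1041 in phoxim and 407, 704 and 724 in control. In neither gene did phoxim and control readings overlap. The titin-like ratios were 2.07, 1.18 and 0.38, a mean of 1.21 ± 0.84 or 2.31-fold (limma adjusted p = 0.147). The kettin ratios were 1.88, 0.92 and 0.75, a mean of 1.18 ± 0.61 or 2.27-fold (limma adjusted p = 0.106). Replicate 1 was highest for both, and with replicate 2 turned the means were 0.43 and 0.57.

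Projectin, an elastic kinase of insect sarcomeres, had 4 probes, all with means above 0. Probe 1 (sw21125) gave 1.34, 1.32 and 0.32, a mean of 0.99 ± 0.58 or 1.99-fold (limma adjusted p = 0.134). Probe 2 (sw01099) gave 2.25, 1.01 and -0.09 (mean 1.06 ± 1.17, limma adjusted p = 0.291), and was the only one of the 4 with a ratio below 0 on an array. Probes 3 (sw04333) and 4 (sw22387) gave means of 0.66 ± 0.12 and 0.87 ± 0.52, with ratios of 0.77, 0.54 and 0.66 for probe 3 and 0.86, 0.35 and 1.40 for probe 4. The lowest of the 4 probes' limma adjusted p-values was 0.134. The control reading of probe 4 was above the negative controls on 2 of 3 arrays. In the turned direction, the means of probes 1 to 4 were 0.11, 0.38, 0.30 and 0.64.

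Titin2 (identifier 100049060) had 2 probes, with ratios of 1.64, 0.89 and 0.24 for sw06585 and of 1.46, 0.51 and 0.30 for sw03048. Their means of 0.93 ± 0.70 and 0.76 ± 0.62 differed by less than the spread over arrays, and their limma adjusted p-values were 0.193 and 0.238. A titin-like probe 2 (sw10017) gave 1.70, 0.46 and 0.51 (mean 0.89 ± 0.70, limma adjusted p = 0.208), with the control reading above the negative controls on 1 array. All 3 probes had their highest ratio on replicate 1. Muscle LIM protein (LOC692826), a Z disc protein, had probes with ratios of 0.67, 0.43 and 0.54 (sw21951) and 0.06, 1.02 and 0.67 (sw21952), and means of 0.55 ± 0.12 and 0.59 ± 0.48. Alpha-actinin (sw05170), which crosslinks actin at the Z disc, gave 0.17, -0.11 and 0.53, a mean of 0.20 ± 0.32 (limma adjusted p = 0.607). Alpha-actinin had the lowest mean of the 12 probes. After replicate 2 was turned, the Titin2 means were 0.33 and 0.42, the titin-like probe 2 mean was 0.59, the alpha-actinin mean was 0.27, and the muscle LIM means were 0.26 and, with a change of sign, -0.09 for sw21952.

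Arginine kinase (AK, sw01402) makes the phosphagen that buffers ATP in invertebrate muscle and other tissues. It read 7406, 6178 and 6042 in phoxim and 6630, 6315 and 7273 in control, and the readings overlapped. Its ratios were -0.00058, 0.03 and -0.18, a mean of -0.05 ± 0.12 with a 95% interval of -0.43 to 0.33 (limma adjusted p = 0.896), and -0.07 with replicate 2 turned. Its interval and that of MLC-2, 0.52 to 1.26, did not overlap, though the difference between these genes was not itself tested.

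In the 16 cytoskeletal or other probes, 5 were above 0 and 2 below 0 on all arrays, against 23% and 14.3% of all kept probes. The mean was above 0 for 11 of the 16 and for 2162 of all 3964 kept probes. The counts on all arrays lie near the shares of all kept probes. Myosin light chain kinase (sw01118), which phosphorylates myosin light chains, gave 1.19, 0.39 and 0.54 (mean 0.71 ± 0.42, limma adjusted p = 0.193). A probe described as a myosin light polypeptide kinase (sw08094) gave 0.34, 0.12 and 0.60 (mean 0.35 ± 0.24). Both kinases were above 0 on every array. The unconventional myosins, which move cargo and membranes in many cell types, were also mostly above 0: myosin Va (sw16346) had a mean of 0.41 ± 0.30, myosin IA (sw09663) of 0.35 ± 0.12, myosin VIIA (sw03538) of 0.29 ± 0.09, and myosin 18A (sw17508) of 0.45 ± 0.51 with -0.15 on replicate 3. Under turned dyes for replicate 2, the kinases had means of 0.44 and 0.27, and these myosins had 0.28, 0.15, 0.04 and -0.04 in the order given.

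Myosin IXA (sw17870) had 1 channel below the negative-control level on every array, with ratios of 3.35, -2.25 and 3.82 (mean 1.64 ± 3.38, limma adjusted p = 0.477). Its phoxim channel read 454, 79 and 485 and its control channel 38, 436 and 25, so that phoxim was above the negative-control level on 2 arrays and control on 1. Its ratios are therefore no measured size. The bright reading was in Cy5 on every array, whichever RNA the headers name for it. With the sign of replicate 2 turned, its ratio was above 0 on all 3 arrays and the mean was 3.14.

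Actin regulators lay around or below 0. The alpha subunit of F-actin capping protein (sw07863), which blocks filament growth at the barbed end, gave -0.92, -0.82 and 0.19 (mean -0.52 ± 0.62, limma adjusted p = 0.367). Its beta subunit (sw12548) gave -0.27, -0.09 and -0.09 (mean -0.15 ± 0.10). A cofilin-type protein (sw17482) and actin-depolymerizing factor 1 (sw04646), which sever filaments, had means of -0.19 ± 0.39 and -0.22 ± 0.32, each with replicate 3 above 0. Neurabin-I (sw12157), an actin-binding protein, had a mean of -0.15 ± 0.12. The F-actin bundling protein Abp (sw11898) ran higher, with 1.39, 0.91 and -0.15 (mean 0.72 ± 0.78). The last 2 probes, for chromatin regulators of the SWI/SNF type caught by the word actin, had means of 0.25 ± 0.24 (sw11137) and 0.09 ± 0.32 (sw09824). In the turned direction, the capping subunits had means of 0.03 (alpha, a change of sign) and -0.09 (beta), the cofilin-type protein -0.13, depolymerizing factor 1 -0.02, neurabin-I -0.08, Abp 0.11, and the chromatin regulators 0.03 and 0.00085.

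**Figure D3:**
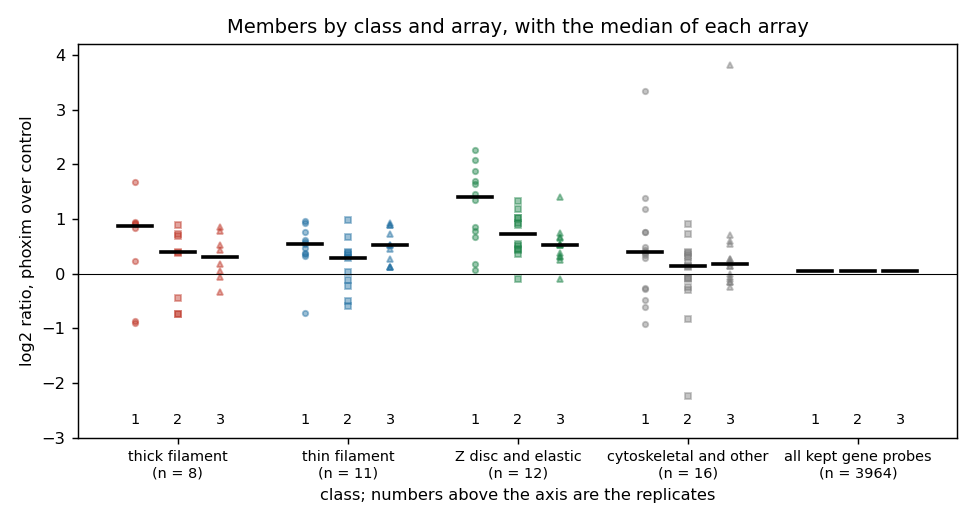
Log2 ratio of phoxim over control (y axis) by class and replicate. Points are members and black bars the median of each array. The bars of the last group, all 3964 kept probes, are drawn without their points. The medians of the Z disc and elastic class were 1.40, 0.72 and 0.52, and those of all kept probes were 0.05, 0.05 and 0.04.

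Set side by side, the Z disc and elastic class had the highest median of the classes, 0.88, with 1.40, 0.72 and 0.52 on replicates 1, 2 and 3. The thick filament class had a median of 0.55, with 0.87, 0.39 and 0.31. The thin filament class had a median of 0.44, with 0.54, 0.29 and 0.53. Thick filament medians were above thin filament medians by 0.34 on replicate 1 and by 0.10 on replicate 2, and the difference was -0.22 on replicate 3. The overall difference of 0.11 was smaller than its SD over arrays, 0.28. It was -0.00054 with replicate 2 turned, -0.03 without replicate 1 and -0.07 with the mean in place of the median. After replicate 2 was turned, the class medians were 0.36 for Z disc and elastic, 0.25 for thick filament and 0.25 for thin filament.

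**Figure D4:**
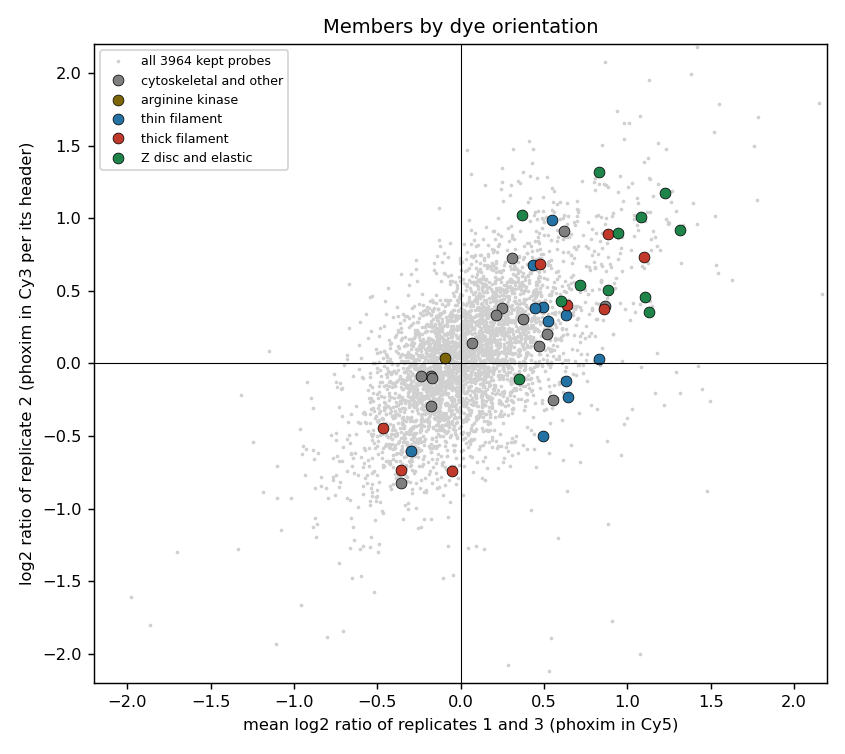
Mean log2 ratio of replicates 1 and 3 (x axis, phoxim in Cy5) against the log2 ratio of replicate 2 (y axis, phoxim in Cy3 by its header) for all 3964 kept probes (small grey points) and the 48 members (large points, by class). Both axes end at ±2.2, which leaves out 20 probes, 1 of them a member, myosin IXA. Most Z disc and elastic probes lie in the upper right, where both dye orientations are above 0, while 4 thin filament probes lie on the right at or below 0.03 on the y axis.

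Readings were also counted by dye within each class. Raw readings were higher in the channel the headers name phoxim on every array for 9 of 12 Z disc and elastic probes, 2 of 8 thick filament probes and 4 of 11 thin filament probes, against 14.0% of all kept probes. Cy5 was the brighter dye on every array for 0 of 12 Z disc and elastic probes, 1 of 8 thick filament probes and 5 of 11 thin filament probes, against 8.68% of all kept probes. These counts are descriptions of raw readings, and the difference between classes was not tested. Summed over the 32 sarcomere probes, the phoxim reading was 206312 on replicate 1, 147336 on replicate 2 and 167031 on replicate 3, and the control reading was 112872, 137481 and 115121. Replicate 2 held the summed channels closest.

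Among the sarcomere probes, the ratios of replicates 1 and 2 had a Pearson correlation of 0.75 across the 32 probes, while replicate 3 had 0.14 with replicate 1 and 0.16 with replicate 2. These are descriptions across probes that share arrays, and the probes are not independent. The 15 members called without replicate 3 included 12 of the sarcomere classes, among them kettin, both titin-like probes, both Titin2 probes, projectin probes 1 and 2, myosin heavy chain, MLC-2, paramyosin probe 2 and the actin named by a tick protein. One called lower was myosin light polypeptide 9 probe 2, and the other was F-actin capping alpha. That fit takes its spread from replicates 1 and 2 alone, with the spread of each probe drawn toward a value pooled over all kept probes.

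Apart from troponin T, the members above the flag level on 1 or 2 arrays were 7 probes. A titin-like probe 3 (sw22168) gave 0.35, 0.34 and -0.07. The further probes matched to Cryptosporidium myosin heavy chain gave 0.96, 0.63 and 0.10 (sw13655), 0.18, -0.57 and 0.04 (sw15735), and -0.31, -0.14 and -0.40 (sw04407). The means of the remaining 3, a cytoplasmic actin, myosin IXb and a SWI/SNF regulator, lay between -0.26 and 0.54. Of the 75 probes below the level on every array, 44 were named for a myosin, 15 for actin and 5 for projectin, and 37 had an intensity at or below 0 on some array.

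Genes that work with the sarcomere were looked up by description. Of 44 probes found by words for calcium handling, 6 were kept, with a median of -0.04 and 0 calls in limma. By their text these include the obscurin-like probe named below, a SPla/RYanodine SPRY match (sw18588) and a calmodulin-dependent cyclic nucleotide match (sw11493). Their median is therefore not a measure of calcium handling as a whole. The smallest p belonged to calcineurin B (Cnb, sw11934), a calcium-dependent phosphatase subunit, at 0.34 ± 0.09 (limma adjusted p = 0.349). Of 14 probes for other muscle proteins, 2 were kept. Myofilin (LOC778476, sw21726), a thick filament protein, gave 0.42, 0.53 and 0.28 (mean 0.41 ± 0.13, limma adjusted p = 0.294), and an obscurin-like probe (sw02570) had a mean of 0.45 ± 0.67. Of 40 probes for attachment and Z line partners 4 were kept, with a median of 0.12, and an integrin alpha match (sw08957) had the smallest p, with a mean of 0.49 ± 0.23 (limma adjusted p = 0.273). By its gene description 1 of these 4 is a translation initiation factor, and the other 3 had a median of 0.27. Under turned dyes for replicate 2, the medians were 0.03 for calcium handling and 0.05 for attachment, or 0.04 for those 3. The turned means were 0.04 for calcineurin B, 0.06 for myofilin, 0.29 for the integrin match and -0.15 for the obscurin-like probe.

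Basement membrane lies between muscle and epithelium, and 2 of its 46 probes were kept, both laminins. The laminin alpha match (sw18234) gave 0.55, 0.57 and 0.70 (mean 0.61 ± 0.08, limma adjusted p = 0.151), and the laminin A chain (sw16006) had a mean of 0.81 ± 0.52. Both were above 0 on all arrays. The 5 kept of 13 actin dynamics probes had a median of 0.02, and their smallest p was that of thymosin (LOC733028, sw21674), an actin monomer binder, with -1.99, -0.77 and 0.13. The word tubulin kept 8 of 37 probes, of which 4 are by their text tubulin cofactors, a chaperone and a ligase, and the 4 tubulins had a median of -0.07. The tubulin with the smallest p was Tua1 (sw22939), at 0.45 ± 0.71. None of these 6 lists held a call in limma, where 0.681% of all kept probes were called. Across the 6 lists 4 probes, counted once each, had an unadjusted p under 0.05 in limma, all higher. Of all kept probes, 10.7% were higher and 4.54% lower at that level, so the count does not set these lists apart. With the sign of replicate 2 turned, the medians were 0.40 for basement membrane, -0.11 for actin dynamics and 0.0020 for the 4 tubulins, and the turned means were 0.23 and 0.58 for the laminins, -0.36 for thymosin and 0.07 for Tua1.

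Markers of other cell types were read on the same arrays. For comparison, 0.681% of all kept probes were called in limma, and 10.7% were higher and 4.54% lower at an unadjusted p under 0.05. Of 44 fat body probes 20 were kept, with a median of 0.64, 7 called higher and 10 higher at an unadjusted p under 0.05 in limma, and their summed reading was 138297 to 321693 in phoxim and 126947 to 143493 in control. Several of the 20 are described as 30kP protease A, which need not mark fat body. Their means ran from 0.07 (sw14336) to 1.06 (sw14348), and none of them was called. The fat body median of 0.64 therefore mixes these proteases with the other probes of the list. Of 25 haemocyte probes 4 were kept, with a median of 0.70, 0 called and 3 at an unadjusted p under 0.05 in limma, and sums of 3012 to 3913 in phoxim and 1481 to 3359 in control. Among them, sw05534 (mean 1.29) and sw20327 (mean 0.72) are described as a prophenoloxidase and a prophenoloxidase activating enzyme. The others, sw22955 (mean 0.68) and sw18580 (mean -0.23), are described as a hemolin-interacting protein, which need not mark haemocytes. Of 115 nerve and trachea probes 10 were kept, with a median of 0.15, 0 called and 1 at an unadjusted p under 0.05 in limma, and sums of 24198 to 26789 in phoxim and 16289 to 32633 in control. The labelled tissue was present: 62 of 179 midgut epithelium probes were kept, with a median of 0.09, 3 called higher and 1 lower, 18 higher and 4 lower at an unadjusted p under 0.05 in limma, and sums of 566407 to 737986 in phoxim and 547572 to 733360 in control. Below the flag level on every array were 18 fat body, 19 haemocyte, 102 nerve and trachea and 102 midgut probes, and no kept marker had an intensity of 0. In the turned direction, the medians were 0.50 for fat body, 0.11 for haemocytes, -0.09 for nerve and trachea and 0.13 for midgut epithelium. The part of these tissues in the sarcomere ratios was not tested.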

How the data were processed

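Each deposited array file holds the intensity of every spot in both dyes on a linear scale. It also holds the ratio of the phoxim to the control RNA, as its header names them, which differs from the quotient of the 2 intensities and was therefore taken as normalized by the authors. How background and normalization were handled is not given in the sources. The deposited log2 table equals log2 of that ratio to within 4.9e-09. Separate backgrounds were not in the files, so the planned background correction and loess were replaced by the deposited ratio. Members, classes and gene lists were chosen with earlier results of these data known. The placing of myosin light polypeptide 9 and myosin 1 light chain under thick filament, and of myosins IA, VIIA, IXA and 18A and the chromatin regulators under other, was set after values were seen.

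Log2 ratios were tested against 0 in limma 3.58.1 (R 4.3.3; lmFit with an intercept, eBayes, two-sided) over the 3964 gene probes flagged on all 3 arrays, with Benjamini-Hochberg adjustment over all of them, and a call was an adjusted p under 0.05. Control spots were left out. The fit was tested on simulated data. With 1 ratio per array, p-values and intervals rest on the spread between these 3 arrays, and that number limits the precision. In limma the spread of each probe is drawn toward a value pooled over all kept probes. For MLC-2 the resulting standard error was 0.155, although its SD over arrays was 0.04. Each member flagged on all arrays is named; of the other members, those whose text is exactly a sarcomere protein; and from each list of other genes, the probe with the smallest p. The laminin A and obscurin-like probes were named after their values were seen. Gene identifiers were matched to the RefSeq table of assembly ASM3026992v2, and all 18 matched; no coordinates or sequences are printed.

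Alternatives were replicate 2 turned, each replicate left out, the plain quotient with loess, median centring, scaling between arrays, other filters on dim probes, an intensity trend, a dye term, a test against a 1.5-fold change, other memberships and other summaries. Alternatives that move the probes of doubtful name, or take sarcomere classes alone, were chosen after seeing the data.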

Additional observations from a re-analysis of the deposited data

How the results depend on the processing

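The count of called members was 0 under every setting that kept all 3 arrays, and ranged from 0 to 15 when 1 replicate was left out: 0 without replicate 1, 1 without replicate 2 and 15 without replicate 3. Few probes of any kind were called with all 3 arrays. The counts were 0 of 3964 with replicate 2 turned or with the dye term, and 0 of 23229 without the flag filter. The most were 25 higher and 9 lower of 3964, for the plain quotient with loess. Without replicate 1, 17 of all kept probes were called higher and 9 lower. With replicate 2 turned, the median of the members was 0.25 in place of 0.45, and 7 members had 1 sign on all arrays in place of 30. That fall was not particular to the members. Of all 3964 kept probes, 302 were above and 290 below 0 on all arrays when turned, against 910 and 566 as the headers state the dyes. Under the settings other than replicate 2 turned, the median of the members lay between 0.38 and 0.56. The thick minus thin filament difference lay between -0.07 and 0.29, within its SD over arrays of the reported 0.11, and was below 0 with replicate 2 turned, without replicate 1 and with the mean. Each array pairs 1 phoxim and 1 control RNA, and the tested ratio already uses that pairing, so the replicate number has no further pair to block. Of 48 members, 38 had both channels above the level on all arrays, and for the dimmest controls the ratio is limited by signal near the negative controls. The cause of these dependences was not tested.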
